A study of Pomacea canaliculata with 34 samples.

Results

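The step from the last embryonic stage to the free animal was examined in the apple snail Pomacea canaliculata, by setting 4 libraries of hatchlings against 4 libraries of Stage 10 embryos. These 8 libraries are part of a series of 34 that runs from Stage 2 to Stage 10 and on to the hatchling. The groups were taken from the sample titles. Every library was made from polyadenylated RNA of whole animals, extracted with Trizol, and per the labels' protocols the embryos were removed from the egg first. No treatment, genotype, strain or age is given in the labels. Nor do they say whether the libraries of a group were made from different clutches, so p-values reflect the variation among the libraries at hand, and that variation may be technical. Because RNA came from whole animals, more cells of a type and more RNA per cell cannot be told apart in any result below.

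Apple snails lay their eggs above the water line. The embryo grows inside the egg on the fluid that surrounds it, passes the larval phases of other molluscs within the egg, and hatches as a small crawling snail with a shell. At hatching the animal leaves the egg fluid and enters water.

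Genes in the deposited table carry identifiers of the form LOC112557629. All 21131 identifiers were found as symbols in the RefSeq gene table of this species (assembly ASM307304v1), which gives no product names, so no function can be attached to any gene named here. The same table gives the order of genes along the genome. No coordinates are printed, because the genome build behind the counts is not given in the sources used here.

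Total reads in genes ran from 31025373 to 95942469 in the hatchling libraries and from 27995708 to 88674538 in the Stage 10 libraries. Similarity between libraries was measured as the Spearman correlation of log2(CPM + 1) over 17441 tested genes, where CPM is a gene's reads per 1000000 reads of the scaled library total. Its median was 0.984 among the hatchling libraries, 0.988 among the Stage 10 libraries and 0.954 between the groups. A library from each group stood somewhat apart. Replicate 3 of the hatchlings had the lowest median correlation with Stage 10, at 0.936, against 0.953 to 0.957 for the other 3 hatchling libraries. Replicate 4 of Stage 10 lay nearest to the hatchlings. Measured along the line from the mean of Stage 9 to the mean of the hatchlings, it stood at 28.4% of the way, and the other 3 Stage 10 libraries stood at 13.5% to 16.8%. The counts of genes called over hatching are therefore also given without each of these libraries, and other counts rest on all 8 libraries unless stated.

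More genes were detectable in hatchlings at equal depth. After every library was thinned at random to 27995708 reads, 16966, 17054, 17077 and 16953 genes had 10 reads or more in hatchling replicates 1 to 4, against 16478, 16617, 16500 and 16636 in Stage 10 replicates 1 to 4. The lowest hatchling library exceeded the highest one of Stage 10. The hatchling mean was 17012 ± 62.1 genes and the Stage 10 mean 16558 ± 80.3 genes (SD, n = 4 each). The difference of 454.8 genes gave p = 0.0286 in a two-sided exact permutation test, the smallest p that 4 against 4 libraries allow, and p = 0.0571 after adjustment over the 2 comparisons of this kind. The other comparison was the share of reads in the 10 most abundant genes of a library, which was 6.81% ± 1.5 in hatchlings and 6.51% ± 0.449 at Stage 10 (n = 4 each, two-sided exact permutation test p = 0.771, adjusted p = 0.771).

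The step over hatching was tested gene by gene with edgeR's quasi-likelihood test, and a gene was called where its Benjamini-Hochberg adjusted p was under 0.05. Of 17441 genes tested, 6309 were called, or 36.2%, with 2950 higher (16.9%) and 3359 lower (19.3%) in hatchlings. In 3263 genes (18.7%) all hatchling libraries lay above all Stage 10 libraries in CPM, and in 3271 (18.8%) all lay below. The calls differed in size by direction. Among genes called higher the median log2 fold change was 1.07, and among genes called lower it was -0.32. A change of 2-fold or more was reached by 1550 genes that rose (8.89% of those tested) and by 93 that fell (0.533%). Of these, 1402 of the risers and 59 of the fallers had no overlap between the groups. At 8-fold or more the counts were 287 genes that rose and 17 that fell. At 32-fold or more they were 27 and 4. Which direction held more calls in all depended on the scaling of libraries, with rises making up 46.8% of calls under the TMM scaling used here, 53.6% under RLE and 39.6% with library totals. The excess of rises among changes of 2-fold or more was present under each of these scalings, with 1610 rises and 84 falls under RLE and 1492 and 103 with library totals.

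**Figure D1:**
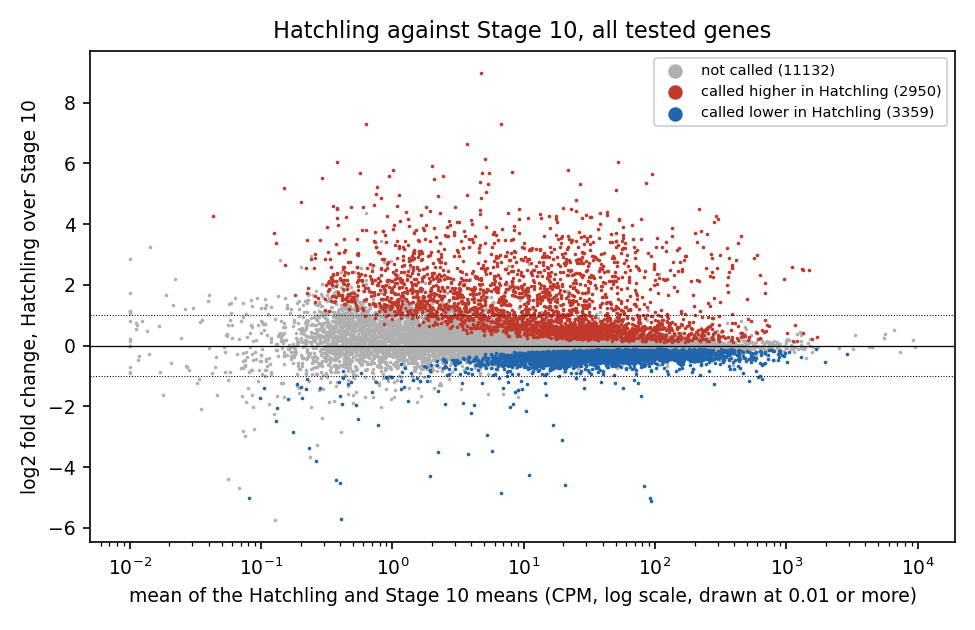
Log2 fold change of each of 17441 tested genes in hatchlings over Stage 10 (vertical axis) against the mean of the 2 group means in CPM (horizontal axis, log scale). Points are coloured by call, 2950 higher and 3359 lower, and dotted lines mark 2-fold. The genes called lower lie mostly in a band within 2-fold of 0, while those called higher reach log2 fold changes of 4 and more at low and middle levels.

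Without hatchling replicate 3 there were 5180 calls, with 1307 rises and 68 falls of 2-fold or more. Without Stage 10 replicate 4 there were 6060 calls, with 1522 such rises and 105 such falls. The excess of large rises was thus present without either library. The libraries differed in how far they showed it. Of the 1550 genes that rose 2-fold or more, replicate 3 was the highest of the 4 hatchling libraries for 1008, or 65.0%, against 31.6% of all tested genes. Replicate 4 was the highest Stage 10 library for 724 of them, or 46.7%, against 25.4% of all tested genes.

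Among the classes of level, rises of 2-fold or more were commonest at 1 to 10 CPM. Among 1903 genes with an average under 1 CPM over both groups, 244 rose by 2-fold or more, or 12.8%. Among 4639 genes at 1 to 10 CPM the count was 701 (15.1%). Among 8965 genes at 10 to 100 CPM the count was 518 (5.78%), and among 1876 genes at 100 to 1000 CPM it was 83 (4.42%). Among the 58 genes at 1000 CPM or more it was 4 (6.9%). Falls of 2-fold or more numbered 33, 34, 21, 5 and 0 in the same classes, from the lowest level to the highest. Falls of any size were called in 1.84% of genes under 1 CPM, 6.01% of genes at 1 to 10 CPM, 26.5% at 10 to 100 CPM, 35.6% at 100 to 1000 CPM and 10.3% at 1000 CPM or more. Rises of any size were called in 13.1%, 20.7%, 16.1%, 15.2% and 19% of genes in that order of classes. Calls of either direction made up 14.9%, 26.7%, 42.6%, 50.8% and 29.3% of genes in these 5 classes, so that the share was highest at 100 to 1000 CPM and lower again in the most abundant class. Of the genes that rose by 2-fold or more, 728 had a mean of 10 CPM or more and 144 a mean of 100 CPM or more in hatchlings. Of those that fell by 2-fold or more, 38 had a mean of 10 CPM or more and 10 a mean of 100 CPM or more at Stage 10.

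The genes that rose by 2-fold or more were followed back through the earlier stages. Libraries of those stages were not among the 8 compared, but they entered the filter, the scaling and the estimate of variation behind the calls. Together they held 0.270% ± 0.0109 of the reads in tested genes at Stage 6 (n = 3), 0.358% ± 0.0357 at Stage 7 (n = 3), 0.683% ± 0.0987 at Stage 8 (n = 4) and 1.70% ± 0.280 at Stage 9 (n = 4). Stage 10 stood at 1.76% ± 0.258 and the hatchling at 8.10% ± 1.5 (n = 4 each). The summed share was thus already above its Stage 6 level at Stage 8 and Stage 9, stood at a similar value at Stage 9 and Stage 10, and was at its highest in hatchlings. By library it was 6.60%, 7.97%, 10.2% and 7.65% in hatchling replicates 1 to 4, against 1.54%, 1.78%, 1.61% and 2.12% in Stage 10 replicates 1 to 4. The last 2 groups are those by which the genes were chosen, so their values are a description and not a test.

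**Figure D2:**
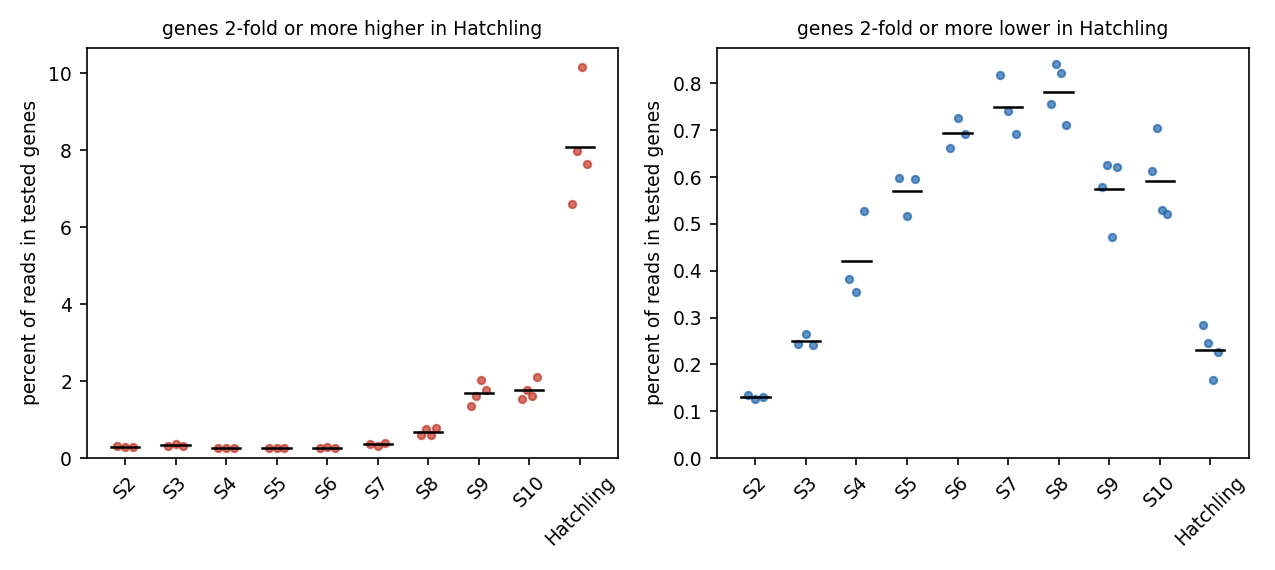
Percent of reads in tested genes (vertical axis) held by the 1550 genes that rose by 2-fold or more (left) and the 93 that fell by 2-fold or more (right), by stage, with 1 point per library and a bar at the mean. The left panel stays under 0.4% to Stage 7 and reaches 8.10% in hatchlings, and the right panel has its highest mean at Stage 8, at 0.782%.

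The steps between Stage 2 and Stage 9 compare none of the 8 libraries of the step over hatching, though all libraries entered the same fit. At the step from Stage 7 to Stage 8 the median log2 fold change of the genes that rose by 2-fold or more was 1.22. At the step from Stage 8 to Stage 9 it was 1.24, where all tested genes had medians of 0.03 and 0.00 at these steps. At Stage 9 against Stage 8 the estimate was positive for 90.8% of them and for 50.2% of all tested genes. At the 4 steps between Stage 2 and Stage 6 their median was 0. Most of them had a mean under 1 CPM at those stages, so this median does not show a steady level. A mean of 1 CPM was already reached at Stage 2 by 258 of the 1550 genes (16.6%, against 67.4% of all tested genes), and first at each of the stages from 3 to 7 by 18 to 97 of them. It was first reached at Stage 8 by 232 (15%, against 4.33% of all tested genes), at Stage 9 by 328 (21.2%, against 3.35%), at Stage 10 by 37 (2.39%, against 1.02%) and in the hatchling by 301 (19.4%, against 2.75%). A further 125 reached it at no stage (8.06%, against 6.29%). Among the earlier stages the highest mean was at Stage 9 for 656 genes (42.3%, against 18.3% of all tested genes) and at Stage 10 for 632 (40.8%, against 21.9%). Shares at Stage 10, in the hatchling or at no stage use the libraries by which the genes were chosen, so they are descriptions. The ranking of Stage 9 against Stage 10 uses them too.

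Whether the hatchling level stood above the whole embryonic course was tested by comparing hatchlings with each of the 9 earlier stages and keeping the largest of the 9 p-values. By this edgeR quasi-likelihood test 1727 of 17441 genes (9.9%) were higher in hatchlings than at every earlier stage and 1826 (10.5%) were lower than at every one, at an adjusted p under 0.05. Without hatchling replicate 3 these counts were 1343 and 1579. Of the 1550 genes that rose by 2-fold or more over hatching, 1107 (71.4%) were above every earlier stage. Of the 93 that fell by 2-fold or more, 22 (23.7%) were below every earlier stage. The comparisons share the hatchling libraries with the choice of these genes, so the 2 shares are descriptions.

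The 3266 genes that fell by less than 2-fold had a different past from those that rose by 2-fold or more. Their median log2 fold change was -0.18 from Stage 8 to Stage 9 and -0.28 from Stage 7 to Stage 8. The estimate for Stage 9 against Stage 8 was positive for 8.21% of them. The highest earlier mean was at Stage 2 for 1316 of them (40.3%, against 23.2% of all tested genes). A mean of 1 CPM or more was already found at that stage for 3159 (96.7%, against 67.4%). Among the 1400 genes called higher by less than 2-fold, such an early level was also common, with 1126 genes (80.4%). Of those 1400, 19.7% had their highest earlier mean at Stage 2, and the estimate for Stage 9 against Stage 8 was positive for 85.6%. LOC112572088 had the largest fall in mean CPM among the genes that qualified for naming, and was singled out for it after its values were seen. It stood at 1602, 1562, 1573 and 1720 CPM in hatchling replicates 1 to 4, against 2421, 2461, 2229 and 2262 CPM in Stage 10 replicates 1 to 4. Naming required that the groups did not overlap, and the log2 fold change was -0.54 (SE 0.0494, edgeR adjusted p = 5.47e-09). Its mean was 6665 ± 226 CPM at Stage 2, 6252 ± 84.5 CPM at Stage 6 (n = 3 each), 3371 ± 198 CPM at Stage 8 and 2654 ± 109 CPM at Stage 9 (n = 4 each). The call was lost in 1 of 17 alternative analyses, the test against a 2-fold minimum, which an estimate under 2-fold cannot pass.

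The 93 genes that fell by 2-fold or more had another course again. As a set they held 0.130% ± 0.0051 of reads at Stage 2, 0.694% ± 0.0325 at Stage 6 (n = 3 each), 0.782% ± 0.0599 at Stage 8 and 0.574% ± 0.0721 at Stage 9 (n = 4 each). Stage 10 stood at 0.592% ± 0.0861 and the hatchling at 0.230% ± 0.0496 (n = 4 each). Their highest earlier means were spread over the stages, with between 6 and 13 genes at each of the 9. In the fit of the 8 libraries alone 59 genes fell by 2-fold or more, so the size of this set depended on which libraries entered the fit.

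Genes of the largest fold change were named among those with 10 CPM or more in the higher group, 10 reads or more over the lower group and no overlap between libraries, and 2 were taken in each direction. LOC112564945 stood at 17.1, 5.30, 28.7 and 2.15 CPM in hatchling replicates 1 to 4, against 0, 0.0958, 0.106 and 0.142 CPM in Stage 10 replicates 1 to 4. Hatchling replicates 1 and 3 were well above replicates 2 and 4, and all 4 were above Stage 10. The log2 fold change was 7.28 (SE 1.04, edgeR adjusted p = 5.08e-05), resting on 21 reads at Stage 10, and it was 6.58 without hatchling replicate 3. No read of it was found at Stage 2 to Stage 7, and its mean was 0.0484 ± 0.0967 CPM at Stage 8 and 0.0335 ± 0.0463 CPM at Stage 9 (n = 4 each). LOC112570672 stood at 66.4, 116, 177 and 49.0 CPM in hatchling replicates 1 to 4, against 0.347, 3.99, 0.402 and 1.85 CPM in Stage 10 replicates 1 to 4. Again replicate 3 was the highest hatchling library and the groups did not overlap. The log2 fold change was 6.05 (SE 0.578, edgeR adjusted p = 9.49e-09), and it was 6.82 without Stage 10 replicate 2. Its mean stayed between 0.0530 and 0.121 CPM from Stage 2 to Stage 8 and was 1.33 ± 0.700 CPM at Stage 9 (n = 4).

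Among genes that met the same conditions, LOC112557629 and LOC112557628 had the largest falls. The first of them stood at 5.81, 6.14, 0.899 and 8.16 CPM in hatchling replicates 1 to 4, against 273, 149, 199 and 102 CPM in Stage 10 replicates 1 to 4. Its log2 fold change was -5.11 (SE 0.423, edgeR adjusted p = 8.93e-10). LOC112557628 stood at 6.34, 6.00, 2.14 and 7.20 CPM in hatchling replicates 1 to 4, against 250.3, 164, 187 and 104 CPM in Stage 10 replicates 1 to 4. Its log2 fold change was -5.02 (SE 0.419, edgeR adjusted p = 9.77e-10). In both genes hatchling replicate 3 was the lowest hatchling library and replicate 4 the lowest Stage 10 library, with no overlap between groups. LOC112557629 had been at 995 ± 22.6 CPM at Stage 6 (n = 3) and 99.4 ± 11.4 CPM at Stage 9 (n = 4), and LOC112557628 at 545 ± 43.2 and 90.2 ± 6.72 CPM at the same stages.

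Among genes called higher, the largest gain in mean CPM was that of LOC112560828, which was also singled out after its values were seen. It stood at 1794, 2428, 3396 and 2486 CPM in hatchling replicates 1 to 4, against 376, 360.3, 479 and 571 CPM in Stage 10 replicates 1 to 4. The log2 fold change was 2.50 (SE 0.290, edgeR adjusted p = 9.91e-07). By mean CPM it ranked 13 in hatchlings and 250 at Stage 10. Its mean was 0.0173 ± 0.0299 CPM at Stage 7 (n = 3), 15.5 ± 7.77 CPM at Stage 8 and 306 ± 117 CPM at Stage 9 (n = 4 each). The gain was spread over many genes. Summed over the 1550 genes that rose by 2-fold or more, the mean difference was 58955 CPM, of which the 10 largest contributors held 21.8% and the 100 largest 63.9%.

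**Figure D3:**
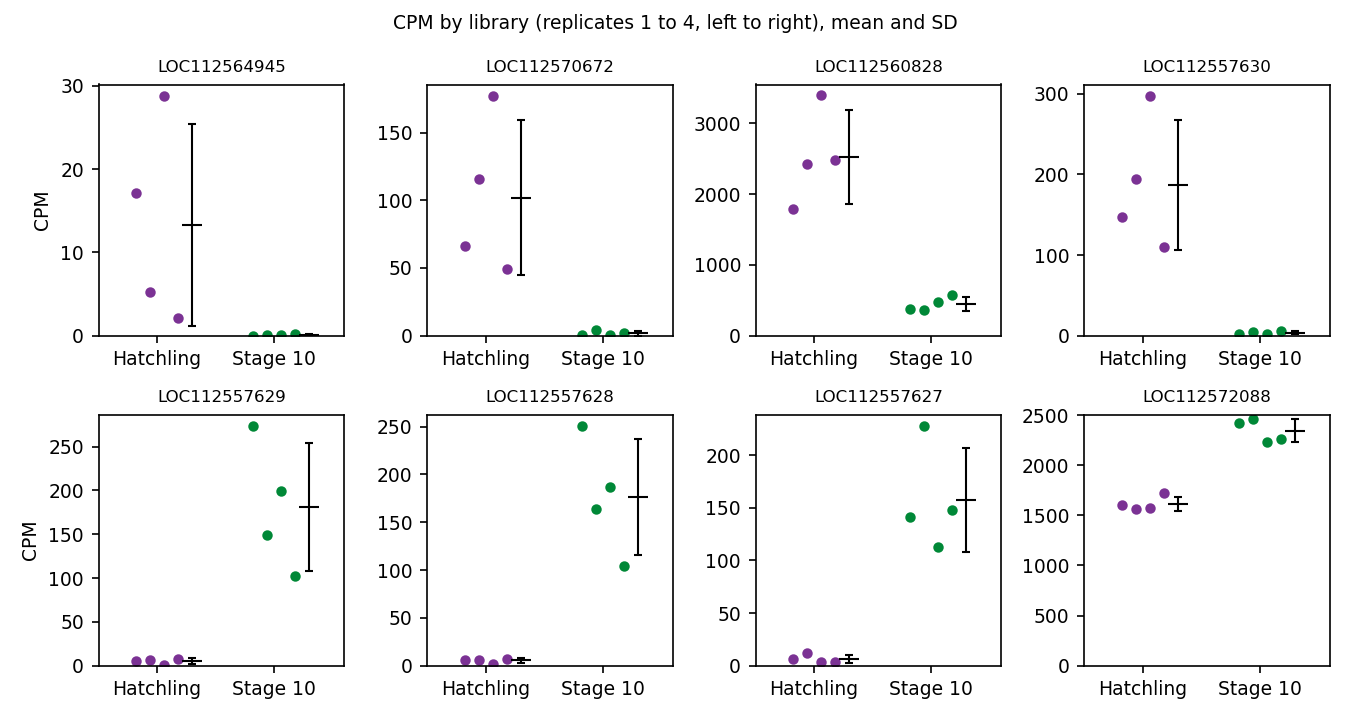
CPM in the 4 hatchling libraries (left) and the 4 Stage 10 libraries (right) for 4 genes that rose (top row) and 4 that fell (bottom row), with replicates 1 to 4 from left to right and the mean and SD beside them. In each panel the groups do not overlap, and hatchling replicate 3 is the highest hatchling library in all 4 panels of the top row.

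The most abundant genes of the 2 groups were largely shared and none of them was called. The 5 genes of highest mean in hatchlings and the 5 at Stage 10 made 6 genes in all. LOC112575079 stood at 15144, 7751, 6669 and 9996 CPM in hatchling replicates 1 to 4, against 8740, 7233, 9228 and 9392 CPM in Stage 10 replicates 1 to 4. LOC112560121 stood at 14433, 6977, 4944 and 11324 CPM in hatchling replicates 1 to 4, against 10708, 11277, 10021 and 7159 CPM in Stage 10 replicates 1 to 4. In both the hatchling libraries ranged to either side of Stage 10, with replicate 1 highest and replicate 3 lowest. LOC112559380 (10056, 4878, 3957 and 6593 CPM) and LOC112574048 (9534, 4772, 3605 and 5990 CPM) had the same order of hatchling libraries. At Stage 10 LOC112559380 lay between 3938 and 5419 CPM, and LOC112574048 between 3946 and 5773 CPM.

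The other 2 of the 6 did not share that order. LOC112573645 stood at 6198, 7883, 8911 and 7759 CPM in hatchling replicates 1 to 4, against 5139, 5815, 6375 and 4428 CPM in Stage 10 replicates 1 to 4, with replicate 3 highest. LOC112561353 stood at 6302, 7712, 6739 and 6716 CPM in hatchling replicates 1 to 4, against 7659, 6044, 9966 and 7888 CPM in Stage 10 replicates 1 to 4. The log2 fold changes of the 6 genes ran from -0.20 to 0.50, with edgeR adjusted p from 0.0996 to 0.907. LOC112573645 was called in the fit of the 8 libraries alone (log2 fold change 0.51, edgeR adjusted p = 0.0231). It was also called in that fit with coefficients for replicate number added (0.51, edgeR adjusted p = 0.0244). LOC112559380 was called without hatchling replicate 2 (0.49, edgeR adjusted p = 0.0491) or 3 (0.56, edgeR adjusted p = 0.014).

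Many of the genes that rose lay next to another such gene in the genome. Of 1549 genes that rose by 2-fold or more and had a place in the gene order, 731 (47.2%) had an adjacent protein-coding gene that also rose by 2-fold or more. Among all 17422 tested genes with a place in the order, 13.4% had such a neighbour. The shares were 46.6% and 11.4% without hatchling replicate 3, and 45.1% and 13.3% without Stage 10 replicate 4. Of the 93 genes that fell by 2-fold or more, 18 (19.4%) had a neighbour that did so too, against 0.815% of all tested genes. Neighbours that are recent copies of each other can share reads, and neighbours that overlap can be counted for each other when strand is ignored. How multiply mapped reads and strand were treated is not given in the sources used here, and their part in these shares was not tested. The shares were described after the data were seen and carry no test.

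Uninterrupted runs of 4 or more adjacent genes that rose by 2-fold or more numbered 46 and held 242 genes, and 17 of the runs had 6 genes or more. The 242 genes had a median log2 fold change of 2.70 and a median hatchling level of 17.7 CPM. The 1308 other genes that rose by 2-fold or more had medians of 1.85 and 7.59 CPM. A mean under 1 CPM at Stage 7 was found for 207 genes in runs (85.5%), for 918 of the others (70.2%) and for 20.8% of all tested genes. A mean of 1 CPM was first reached at Stage 8 or Stage 9 by 129 genes in runs (53.3%), by 431 of the others (33.0%) and by 7.68% of all tested genes. The share that first reached it in the hatchling was 19.4% in both sets and 2.75% of all tested genes. That share and the medians of fold change and hatchling level rest on the libraries by which both sets were chosen, so they are descriptions.

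The longest run held 13 genes, from LOC112563079 to LOC112563123. By the rule for a run all 13 rose by 2-fold or more, with log2 fold changes from 2.11 to 4.41. In all 13 the hatchling libraries lay above the Stage 10 libraries, as they did in 1402 of the 1550 genes that rose by 2-fold or more. For 11 of the 13 the hatchling level was above every earlier stage, against 71.4% of those 1550 genes. Their levels were far apart, from 2.12 CPM in hatchlings for LOC112563163 to 830.3 CPM for LOC112563251. LOC112563251 stood at 707, 734, 1161 and 719.6 CPM in hatchling replicates 1 to 4, against 46.1, 87.0, 47.7 and 89.6 CPM in Stage 10 replicates 1 to 4 (log2 fold change 3.62, SE 0.298, edgeR adjusted p = 1.72e-09). LOC112563025 had the largest fold change of the run. It stood at 74.0, 62.5, 130.5 and 64.7 CPM in hatchling replicates 1 to 4, against 2.98, 5.33, 2.35 and 5.04 CPM in Stage 10 replicates 1 to 4 (log2 fold change 4.41, SE 0.324, edgeR adjusted p = 6.1e-09).

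LOC112563051, in the middle of the run, stood at 603, 583, 844 and 639.6 CPM in hatchling replicates 1 to 4, against 72.7, 124, 87.4 and 139 CPM in Stage 10 replicates 1 to 4 (log2 fold change 2.66, SE 0.286, edgeR adjusted p = 3.21e-06). Summed over the 13 genes, the level was 3.58 ± 3.40 CPM at Stage 7 (n = 3), 24.5 ± 11.1 CPM at Stage 8 and 407 ± 100.2 CPM at Stage 9 (n = 4 each). It was 381 ± 92.8 CPM at Stage 10 and 2768 ± 657 CPM in hatchlings (n = 4 each). Like the risers as a whole, the run was at its lowest in the earlier stages, similar at Stage 9 and Stage 10, and highest in hatchlings. The genes at its ends moved less. LOC112563077 on one side was not called (log2 fold change 0.99, edgeR adjusted p = 0.158). Its level was low, with means of 0.875 CPM in hatchlings and 0.432 CPM at Stage 10. It was called under limma-voom (log2 fold change 0.90, limma-voom adjusted p = 0.0309). LOC112561755 on the other side had a log2 fold change of 0.68 (edgeR adjusted p = 0.0364), a call lost in 8 of 17 alternative analyses. Of these 8, 1 was the test against a 2-fold minimum, which an estimate under 2-fold cannot pass. Among those 8 were the fits without hatchling replicate 2 or 3 and without Stage 10 replicate 2, 3 or 4, with edgeR adjusted p from 0.0635 to 0.139.

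The next longest runs had 10 and 9 genes. The run of 10, from LOC112557299 to LOC112557262, summed to 152 ± 59.6 CPM in hatchlings and 20.8 ± 7.32 CPM at Stage 10, and to 23.6 ± 6.39 CPM at Stage 9 (n = 4 each). Of its genes 4 were above every earlier stage, against 11 of 13 in the longest run. The run of 9, from LOC112571159 to LOC112571293, summed to 682 ± 177 CPM in hatchlings and 65.0 ± 19.3 CPM at Stage 10 (n = 4 each), and 8 of the 9 were above every earlier stage. LOC112570672, the riser described above, closed a run of 6 genes that begins with LOC112570176. That run summed to 822 ± 290 CPM in hatchlings and 53.5 ± 24.0 CPM at Stage 10 (n = 4 each), and its log2 fold changes ran from 1.95 to 6.05.

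Both of the named genes that fell lay in 1 run. LOC112557629 and LOC112557628 are the first of 7 adjacent genes that fell, followed by LOC112555648, LOC112557632, LOC112557627, LOC112557637 and LOC112555657. Log2 fold changes in the run went from -5.11 to -3.47. In all 7 genes the hatchling libraries lay below the Stage 10 libraries, as they did in 59 of the 93 genes that fell by 2-fold or more. The hatchling level was below every earlier stage in all 7, against 23.7% of the 93. LOC112557627 stood at 6.21, 11.9, 3.57 and 3.92 CPM in hatchling replicates 1 to 4, against 141, 227.5, 113 and 148 CPM in Stage 10 replicates 1 to 4 (log2 fold change -4.62, SE 0.290, edgeR adjusted p = 1.15e-11). LOC112555648 stood at 2.44, 1.90, 0.583 and 1.14 CPM in hatchling replicates 1 to 4, against 45.2, 43.1, 41.7 and 28.3 CPM in Stage 10 replicates 1 to 4 (log2 fold change -4.60, SE 0.249, edgeR adjusted p = 8.19e-13). No other run of lower genes was longer than 3.

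**Figure D4:**
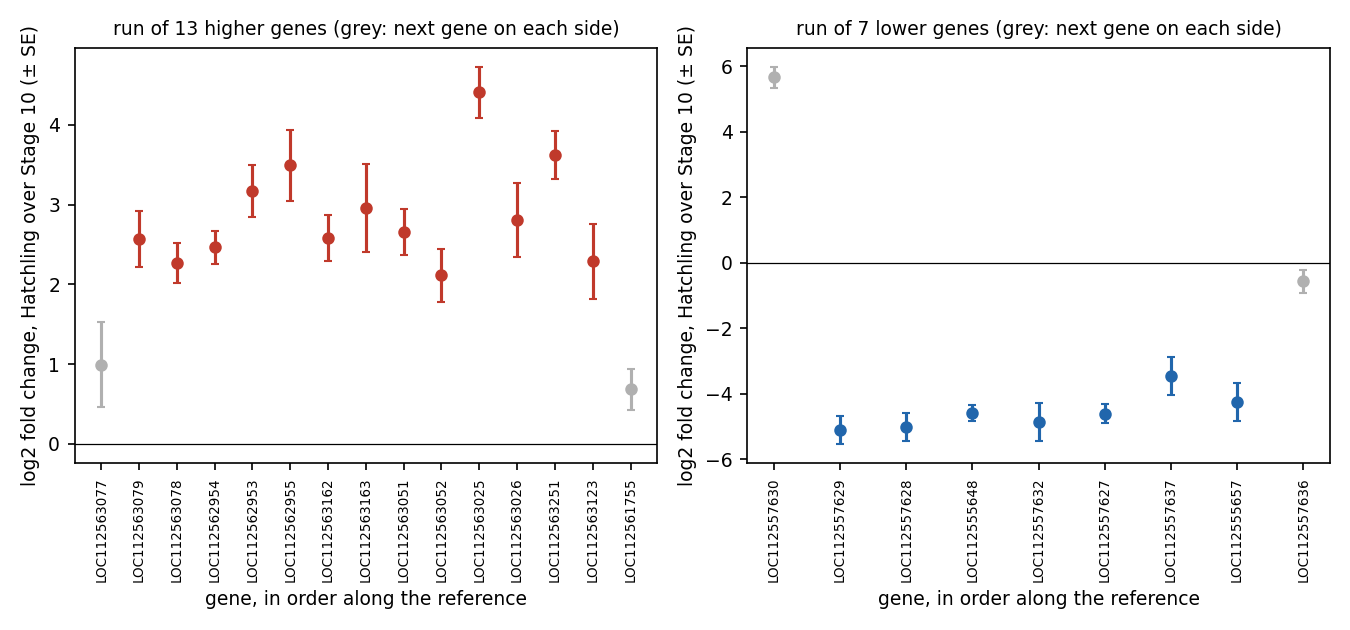
Log2 fold change in hatchlings over Stage 10 with its SE (vertical axis) for each gene of the run of 13 genes that rose (left) and of the run of 7 that fell (right), in gene order (horizontal axis), with the next gene on each side in grey. The 13 genes lie between 2.11 and 4.41 and the 7 genes between -5.11 and -3.47, and the grey gene just before the 7 stands at 5.66.

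Summed over the 7 genes, the level was 179 ± 42.0 CPM at Stage 2, 903 ± 130.1 CPM at Stage 3, 2300 ± 951 CPM at Stage 4, 2966 ± 284 CPM at Stage 5 and 3059 ± 84.9 CPM at Stage 6 (n = 3 each). It was 1984 ± 356 CPM at Stage 7 (n = 3), 1230 ± 231 CPM at Stage 8 and 393 ± 27.9 CPM at Stage 9 (n = 4 each). At Stage 10 it was 599 ± 153 CPM and in hatchlings 21.0 ± 8.81 CPM (n = 4 each). By library the sums were 23.8, 29.1, 8.46 and 22.7 CPM in hatchling replicates 1 to 4, against 776, 616, 600.4 and 403 CPM in Stage 10 replicates 1 to 4. The sum was highest at Stage 5 and Stage 6, was several times lower at Stage 9 and Stage 10, and was lowest in hatchlings. The replicate of Stage 10 nearest to the hatchlings, replicate 4, was the lowest of that stage.

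The gene just before the run moved the other way. LOC112557630 stood at 147, 194, 297 and 110.4 CPM in hatchling replicates 1 to 4, against 2.02, 5.01, 2.37 and 5.51 CPM in Stage 10 replicates 1 to 4. Its log2 fold change was 5.66 (SE 0.327, edgeR adjusted p = 2.17e-12). Its mean was at most 0.164 CPM from Stage 2 to Stage 8, and 2.98 ± 0.637 CPM at Stage 9 (n = 4). On the other side LOC112557636 stood at 893, 615, 146 and 568 CPM in hatchling replicates 1 to 4, against 939, 882, 597 and 884 CPM in Stage 10 replicates 1 to 4, and it was not called (log2 fold change -0.57, edgeR adjusted p = 0.226). Among all adjacent pairs in the gene order, 468 were of 2 genes that both rose by 2-fold or more, 12 of 2 that both fell and 16 of 2 that moved in opposite directions. The runs and their neighbours were chosen after their values were seen, and their values are given as a description of where the changes lay.

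**Figure D5:**
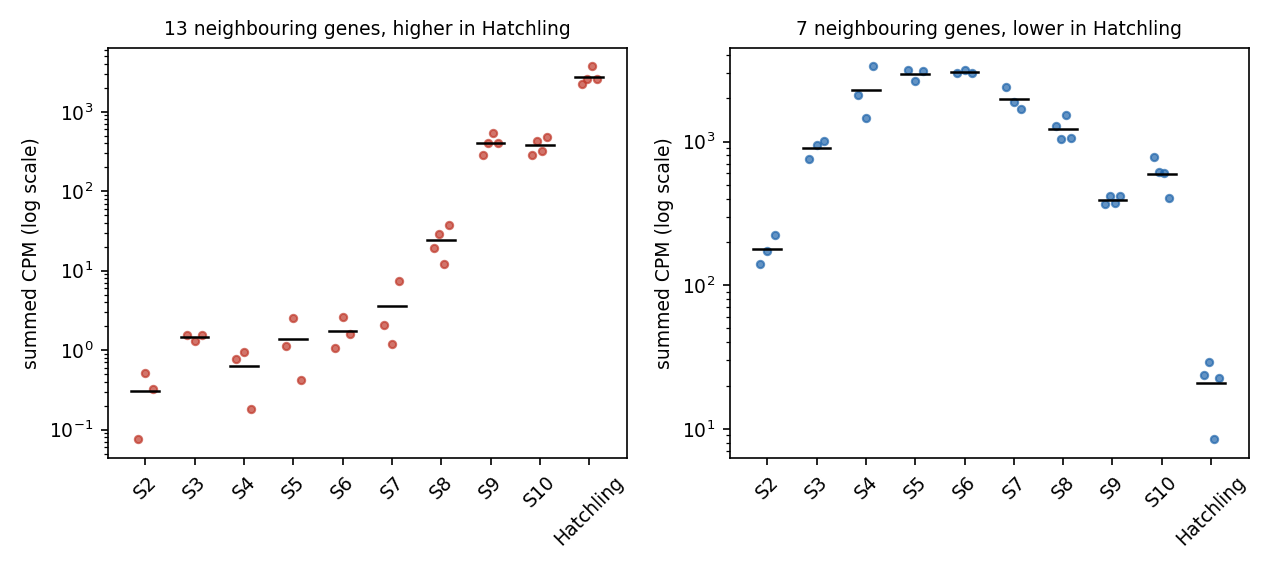
Summed CPM (vertical axis, log scale) of the 13 adjacent genes that rose (left) and the 7 that fell (right) over the series, with 1 point per library and a bar at the mean. The left sum is 2768 CPM in hatchlings and 381 CPM at Stage 10, and the right sum is 21.0 CPM in hatchlings and 599 CPM at Stage 10 after a maximum of 3059 CPM at Stage 6.

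Few genes were read in 1 group alone. The Stage 10 libraries held no read of 6 genes that had 3 reads or more in every hatchling library. The highest of them, LOC112568239, had 18, 3, 15 and 25 reads in hatchling replicates 1 to 4, a mean of 0.343 ± 0.294 CPM (n = 4). The absence of reads at Stage 10 allows a level of up to 0.0112 CPM, set by 3 reads over the 4 libraries together and covering counting error only. No gene met the converse rule, with no read in hatchlings and 3 reads or more in every Stage 10 library.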

How the data were processed

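Per the submitters' processing notes STAR was used, and the authors deposited raw counts, whole numbers of reads for each gene in each library. STAR's version, the annotation and the counting settings: not given in the sources used here. Members and lists were chosen with earlier results of these data known. Counts of all 34 libraries were fitted in edgeR 4.0.16 (R 4.3.3) with TMM scaling, filterByExpr (minimum count 10, by stage) and 1 coefficient per stage. The filter left 17441 of 21131 genes and removed 3690. P-values were adjusted over all genes tested. The SE of a log2 fold change is its size divided by the root of F, and values are CPM as mean ± SD. No 2 libraries of a group agreed within sampling noise (chi-square per gene 32.2 to 188). Permutation tests used SciPy 1.17.1. The model was tested on simulated counts. Alternatives used DESeq2 1.42.0, limma 3.58.1, other scalings, filters and fits, and left-out replicates. Gene lists by product name and protein features could not be applied, since no product names or proteins were at hand. Named genes were the 2 of largest fold change in each direction, under the conditions in the report, and the 5 of highest mean in each group. The genes of largest change in CPM, the runs and their neighbours were added after the data were seen.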

Additional observations from a re-analysis of the deposited data

Results flagged for a closer look

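In 6 of 81 groups of 4 libraries examined, the highest or lowest library stood far from the others, by a gap, divided by the group's range, above Dixon's critical value for 4 samples. Chance gives this in about 1 group in 20. Of these, 4 were hatchling values of genes in the run of 13, each with replicate 3 far above the rest: LOC112563162 (gap 0.842 of the range), LOC112563163 (0.884), LOC112563025 (0.830) and LOC112563251 (0.942). These genes belong to the same run and their values are not independent. LOC112563078 of the same run had such a gap at Stage 10 (0.917), with replicate 4 above the rest. LOC112557636, next to the run of 7, had 1 at Stage 10 (0.833), with replicate 3 below the rest.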

How the results depend on the processing

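Rises made up 46.8% of the calls. That share was 53.6% with RLE, 39.6% with library totals, 53.9% with DESeq2, 50.1% with limma-voom, 48.5% with every gene kept, 53.5% in the fit of the 8 libraries alone and 97.4% in the test against a 2-fold minimum. Leaving out 1 library at a time gave 44.6% to 47.6%. The test against a 2-fold minimum called 705 genes, 687 higher and 18 lower. Falls of 2-fold or more numbered 59 in the fit of the 8 libraries alone and 68 to 123 with 1 library left out. Calls ran from 5180 to 6065 with 1 library left out. Deviations of same-numbered libraries from their group means correlated at 0.0224, 0.0602, -0.0954 and -0.279, and not every library correlated best with its own number. With 4 libraries a group, these values cannot decide whether replicate numbers pair the libraries. With the replicate block, 6151 genes were called in the fit of all libraries. In the fit of the 8 libraries alone, 6277 genes were called without the replicate block and 4104 with it. Of the 4104, 1572 were lower, with 51 falls of 2-fold or more and 61.7% of calls higher. The gain in genes detected was 428 to 481 with 1 library left out, where 3 against 4 libraries cannot go below the exact permutation p = 0.0571. The share of the 10 most abundant genes differed by -0.378 percentage points without hatchling replicate 1 and by up to 0.797 without replicate 3. Signs turned for 3 abundant genes that were not called: LOC112575079 (-0.086, range with 1 library left out -0.086 to 0.343) and LOC112574048 (-0.083, range -0.083 to 0.415) without hatchling replicate 1, and LOC112560121 (range -0.336 to 0.16) without hatchling replicate 2 (0.06) or 3 (0.16) or Stage 10 replicate 2 (0.02). The longest runs held 13 and 7 genes in each of the 12 alternatives run for them, which were chosen after seeing the data. Tests of product-name lists and protein features were not run. Fold changes of genes near 0 CPM at Stage 10 rest on few reads. LOC112564945, at a mean of 0.0860 CPM, had 21 reads over the Stage 10 libraries, and LOC112563026, at 0.580 CPM, had 136. The cause of these shifts was not tested.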
